A study of Mus musculus with 13 samples.

Results

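The 10 genes described here encode tissue inhibitors of metalloproteinases (Timp1, Timp2, Timp3 and Timp4), the membrane-anchored inhibitor RECK (Reck) and 5 secreted proteases of the ADAMTS family (Adamts1, Adamts2, Adamts4, Adamts5 and Adamts12). They were chosen by gene family, with their expected counts in these samples already known, out of 57010 genes in the deposited gene table. All 10 symbols were found in the GRCm39 annotation. The statistics of these genes are therefore given as a description, and nothing is read from how many of them passed a threshold. Of the 10, 9 passed the filter on low counts and were fitted; Timp4 did not.

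RNA was sequenced from wild-type (WT) mouse embryonic fibroblasts (MEFs), a mixed primary culture made from minced mid-gestation embryos after removal of the viscera. The study compared 4 groups, each with cells numbered mouse 4, mouse 5 and mouse 6. Control MEFs were not made senescent and are labelled untreated. Senescent MEFs had been exposed to 2 µM etoposide, a topoisomerase poison that breaks DNA, for 24 h and were then kept in normal medium for 5 days. The titles of the senescent samples read Eo without Fucoidan-FV and Eto with it, and both were taken to mean the etoposide induction that the study's methods describe for RNA sequencing. In the remaining groups such senescent MEFs received Fucoidan-FV, a sulfated polysaccharide from the brown seaweed Fucus vesiculosus, at 100 µg/mL or 300 µg/mL for 12 h before RNA extraction. Control mouse 5 was represented by libraries 5(1) and 5(2), whose counts were summed, so 13 libraries gave 12 samples. The labels do not say whether 5(1) and 5(2) are repeat libraries of the same RNA or separate cultures. No control MEFs treated with Fucoidan-FV were analysed here.

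TIMPs bind the zinc active site of metalloproteinases and block it, and their balance with proteases sets how fast extracellular matrix is turned over. TIMP1 and TIMP2 act mainly on matrix metalloproteinases (MMPs), whereas TIMP3 is held in the matrix and also inhibits ADAMTS proteases and membrane sheddases of the ADAM family. RECK sits on the cell surface through a lipid anchor and restrains MMPs and ADAM10. ADAMTS1, ADAMTS4 and ADAMTS5 cleave the large proteoglycans aggrecan and versican, ADAMTS2 removes the amino-terminal propeptide of fibrillar procollagens, and ADAMTS12 cleaves cartilage oligomeric matrix protein. In fibroblasts that have become senescent, TIMPs and matrix proteases belong to the factors commonly counted in the senescence-associated secretory phenotype (SASP).

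Promoters of members called lower and of members called higher with Fucoidan-FV are shown so that genes that moved in opposite directions can be set side by side. RefSeq promoters (GRCm38.p6) were given for 8 of the 10 genes, all except Adamts4 and Adamts5. The 250 bases before the start of Timp1 and Timp3, which were lower with Fucoidan-FV, and of Adamts1 and Reck, which were higher, are shown 5′ to 3′ on the strand of the gene, with the letters of the SP1 motif (GGGCGG, or CCGCCC on the other strand) in capitals.
Timp1 promoter (chrX:20869916-20870165, plus strand): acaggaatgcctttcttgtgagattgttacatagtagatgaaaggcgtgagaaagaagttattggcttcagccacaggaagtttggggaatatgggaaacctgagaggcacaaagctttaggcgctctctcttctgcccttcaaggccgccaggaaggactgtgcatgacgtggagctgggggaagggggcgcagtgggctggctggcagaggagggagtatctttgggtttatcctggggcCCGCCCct
Timp3 promoter (chr10:86300162-86300411, plus strand): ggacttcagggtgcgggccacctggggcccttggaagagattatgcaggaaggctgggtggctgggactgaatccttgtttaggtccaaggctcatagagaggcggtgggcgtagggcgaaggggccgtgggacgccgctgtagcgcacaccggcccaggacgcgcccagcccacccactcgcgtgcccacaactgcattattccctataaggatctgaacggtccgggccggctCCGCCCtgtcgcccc
Adamts1 promoter (chr16:85803114-85803363, minus strand): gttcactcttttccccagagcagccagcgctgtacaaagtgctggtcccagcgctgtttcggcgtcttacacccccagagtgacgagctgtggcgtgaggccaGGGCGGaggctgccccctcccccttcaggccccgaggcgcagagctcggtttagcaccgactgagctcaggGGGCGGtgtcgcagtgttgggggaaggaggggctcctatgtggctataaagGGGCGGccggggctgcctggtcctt
Reck promoter (chr4:43875280-43875529, plus strand): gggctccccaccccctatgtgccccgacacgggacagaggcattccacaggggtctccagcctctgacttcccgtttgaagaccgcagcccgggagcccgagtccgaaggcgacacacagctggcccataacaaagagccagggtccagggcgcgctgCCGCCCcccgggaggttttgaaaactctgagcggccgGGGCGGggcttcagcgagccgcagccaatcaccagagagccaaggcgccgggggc

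The SP1 letters occurred 1 time in the windows of Timp1 and Timp3, 2 times in that of Reck and 3 times in that of Adamts1. They occurred most often, 5 times, in the window of Adamts2, which was called in no comparison. The window of Timp2 held them 1 time, and those of Timp4 and Adamts12 did not hold them. Among the 8 windows, 6 held the SP1 letters, as did 32.7% of the 32851 promoters in the table. None of the 8 held the AP-1 letters TGANTCA, which 6.75% of all promoters held, and none held the RUNX letters TGTGGTT, which 4.4% held, on either strand. As only the SP1 letters were found, overlap between different motifs could not arise in these windows. These matches describe letters in a short window only, and they were present in genes called lower and in genes called higher.

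The libraries held 22782536 to 31278750 expected counts each. Levels below are CPM, read counts scaled to a fixed library size with TMM factors, which makes libraries of different depth and composition comparable. A gene was called when its adjusted p was under 0.05 and its change over 2-fold in edgeR's quasi-likelihood fit over 15034 genes, adjusted by the Benjamini-Hochberg method. Errors after ± are the SE of a log2 fold change unless SD is named. The senescent label could be checked on the cell cycle inhibitors Cdkn1a and Cdkn2a, which rose by 1.82 ± 0.18 and 2.46 ± 0.25 on the log2 scale against control (adjusted p = 6.79e-05 and 7.24e-05 in edgeR's test). All 10 fibroblast markers were detected, with a summed level of 31800 to 53800 CPM. The largest part was Fn1, with group means of 25300 to 34500 CPM. Other markers of this list were low: group means were 0.061 to 6.6 CPM for Lum, 1.06 to 81.6 CPM for Dcn and 7.18 to 21.4 CPM for Pdgfra. The summed levels were at most 14.3 CPM for 6 leukocyte, 11.7 CPM for 5 endothelial and 2.04 CPM for 5 epithelial markers. Chondrocyte markers summed to 618 to 873 CPM in control samples, 228 to 356 CPM in senescent samples and 125 to 240 CPM with Fucoidan-FV. Endothelial markers summed to 1.32 to 3.3 CPM without Fucoidan-FV and to 5.23 to 11.7 CPM with it, most of it Tek. Most of the chondrocyte sum was Col2a1, with means of 719, 271, 142 and 179 CPM in control, senescent, 100 µg/mL and 300 µg/mL samples, whereas Comp, of the same list, had means of 1.12, 3.42, 25.4 and 14.9 CPM and Sox9 of 3.73, 2.86, 6.65 and 4.68 CPM. Krt14, Matn1 and Rbfox3, of the epithelial, chondrocyte and neural lists, were at 0 in control and senescent samples. The 6 skeletal muscle markers lay between 68.2 and 359 CPM and the 5 neural and glial markers between 32.5 and 77.8 CPM. Nearly all of the muscle sum was Acta1 and Des, whereas Myod1, Myog, Myh3 and Ttn had group means of at most 0.698 CPM. The part of these other cell types in the results below was not tested, and in bulk RNA fewer cells of a type and less RNA per cell cannot be told apart.

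Libraries also differed in a property that touches some members. Whether it arose in library preparation or in the cells was not tested. For 1983 genes with over 95% of their exonic bases in a single annotated transcript, the median log2 deviation from the mean of all 13 libraries was lowest in control mouse 6 (-1.36) and highest in the 100 µg/mL sample of mouse 5 (0.99). For the 7866 genes with under 50% of such bases it stayed between -0.15 and 0.23. The mean deviation of a group was -0.32 in control, -0.03 in senescent, 0.56 in 100 µg/mL and -0.09 in 300 µg/mL libraries. The share of exonic bases in a single transcript was 100% for Adamts5, 93.2% for Timp3 and 90.2% for Adamts12. It was 17.9% for Timp2, 8.8% for Reck and Adamts4 and 0.5% for Timp1. The libraries 5(1) and 5(2), both from control mouse 5, deviated by -1.10 and 0.73, and they gave 8.82 and 77.6 CPM for Adamts5, 34.2 and 116 CPM for Adamts12 and 1207 and 613 CPM for Timp1. Because of this spread, results were repeated with an offset that removes the relation to single-transcript sequence, and the larger shifts are given beside the gene.

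In senescent against control MEFs Timp2, Timp3 and Reck were called higher by 2.8 to 4.0-fold, Timp1 was not called, and none of the 5 ADAMTS proteases was called in either direction. Among the 9 members fitted, 3 were called higher and 0 lower, while 4.47% of all genes tested were called higher and 3.95% lower. Control and senescent samples were fully separate in 5 of the 9 members, Timp1 and Adamts2 among them, and in 27.1% of all genes. The median log2 fold change was 1.61 over the 4 inhibitors fitted, 0.26 over the 5 proteases and 0.07 over all genes, and the difference between inhibitors and proteases was not tested.

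Timp1 lies on chromosome X (20736316 to 20740976, plus strand, GRCm39) inside the Syn1 gene, with no exonic bases shared. TIMP1 is the secreted broad MMP inhibitor most often followed in fibroblast SASP work. Timp1 was at 1057, 958.6 and 1115 CPM in control mice 4, 5 and 6, and at 1140, 1179 and 2479 CPM in the senescent samples of the same mice. Senescent mouse 6 thus stood far above the other senescent samples, which lay just above the highest control. The log2 fold change was 0.62 ± 0.27 (adjusted p = 0.168, edgeR), and it was 0.16 without senescent mouse 6.

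With Fucoidan-FV Timp1 was at 253.6, 229.8 and 297.9 CPM at 100 µg/mL and at 324.8, 243.6 and 242.3 CPM at 300 µg/mL in mice 4, 5 and 6. All 6 treated samples lay below every senescent sample and also below every control sample. Against senescent MEFs Timp1 fell by 2.62 on the log2 scale at 100 µg/mL (SE 0.28, adjusted p = 0.00056, edgeR), or 6.14-fold, and by 2.57 at 300 µg/mL (SE 0.28, adjusted p = 0.000955, edgeR). It was called lower at both doses in each of the 21 alternatives run, with values from -2.73 to -2.01 at 100 µg/mL and from -2.72 to -2.06 at 300 µg/mL. Without senescent mouse 6 it was -2.01 and -2.06 at these doses. Its transcript length as RSEM estimated it, weighted by the abundance of its transcripts, was 856 to 857 bases in every library.

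Timp2 (chromosome 11, 118191887 to 118246566, minus strand) encodes the inhibitor that, together with the membrane protease MMP14, takes part in activating pro-MMP2. It was at 605, 501.4 and 379.2 CPM in control mice 4, 5 and 6 and at 1532, 1186 and 1505 CPM in the senescent samples. Each senescent sample was well above each control sample, by 1.51 ± 0.20 on the log2 scale (adjusted p = 0.000437, edgeR). Timp2 stayed near this level with Fucoidan-FV, at 1670, 1552 and 1264 CPM at 100 µg/mL and 1200, 1410 and 1356 CPM at 300 µg/mL. The ranges overlapped with the senescent range at both doses, and the log2 differences were 0.09 (95% interval -0.34 to 0.52) and -0.09 (95% interval -0.52 to 0.34), so a change of more than about 0.52 lay outside both intervals. Of its exonic bases, 7.78% were shared with Cep295nl, which had at most 605 expected counts in any library. The estimated transcript length of Timp2 varied from 976 to 1904 bases between libraries.

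Timp3 (chromosome 10, 86136236 to 86185371, plus strand) encodes the matrix-bound inhibitor of ADAMTS proteases. It was at 404.4, 318.5 and 314.7 CPM in control mice 4, 5 and 6 and at 1453, 1036 and 927.4 CPM in the senescent samples. At 100 µg/mL it was at 580, 536.4 and 450.1 CPM and at 300 µg/mL at 464.4, 511.2 and 468.8 CPM. The treated samples lay between the control and the senescent samples without overlap with either on this scale. In the deposited TPM, which are scaled for length, senescent mouse 6 was at 245.5 TPM, inside the range of the treated samples (232.6 to 293.3 TPM).

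Timp3 rose by 1.72 ± 0.20 on the log2 scale in senescent MEFs (adjusted p = 0.000177, edgeR). It fell by 1.13 at 100 µg/mL (SE 0.20, adjusted p = 0.00862, edgeR) and by 1.24 at 300 µg/mL (SE 0.20, adjusted p = 0.00875, edgeR). Without senescent mouse 4, the highest sample, the change at 100 µg/mL was -0.72 with adjusted p = 0.0726 and that at 300 µg/mL was -0.95, under the 2-fold limit. The call at 100 µg/mL was also lost without senescent mouse 5 (adjusted p = 0.0511, edgeR) and in a fit of only the 2 groups compared (0.0921), and that at 300 µg/mL without the treated sample of mouse 6 (0.0604). With the offset for single-transcript sequence the changes were -1.43 at 100 µg/mL and -1.16 at 300 µg/mL (adjusted p = 0.00975 and 0.0262, edgeR), and with exonic length in the offset they were -1.68 and -1.41. Of its exonic bases, 21.29% overlap Syn3 on the opposite strand, and the Syn3 row itself held 17105 to 22409 counts in senescent samples against 3143 to 7537 in control samples and 3086 to 8760 with Fucoidan-FV. How the counting step used strand is not given in the sources used here, so reads of Timp3 and Syn3 cannot be told apart with certainty. With the Syn3 counts added to Timp3, the log2 fold changes were 1.84, -1.25 and -1.29 in the same order (adjusted p = 3.15e-05, 0.00297 and 0.00238, edgeR).

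Timp4 (chromosome 6, 115187773 to 115229336, minus strand), a TIMP found chiefly in heart and brain, had at most 4 counts in any sample and 0 counts in 8 of 12 samples. It did not pass the filter on low counts. In a fit with no filter beyond 1 count it was not called in any of the 4 comparisons (adjusted p from 0.738 to 0.968, edgeR).

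Reck (chromosome 4, 43875514 to 43944806, plus strand) was higher at each step from control to treated cells. This surface inhibitor was at 11.98, 8.87 and 9.87 CPM in control mice 4, 5 and 6, at 47.77, 51.26 and 23.51 CPM in senescent samples, at 75.28, 69.93 and 104.7 CPM with 100 µg/mL and at 113, 81.58 and 96.43 CPM with 300 µg/mL. No senescent sample overlapped a control sample and no treated sample overlapped a senescent one, while the ranges of both doses overlapped. The log2 fold change was 2.00 ± 0.29 in senescent against control MEFs (adjusted p = 0.000721, edgeR). Against senescent MEFs it was 1.03 ± 0.28 at 100 µg/mL (adjusted p = 0.0579, edgeR, not called) and 1.25 ± 0.28 at 300 µg/mL (adjusted p = 0.0397, edgeR, called). These calls sat at the threshold: with the mouse as a block the adjusted p at 300 µg/mL was 0.0722, while at 100 µg/mL DESeq2 gave 0.00577 and the offset for single-transcript sequence 0.0176. The call at 300 µg/mL was lost without treated mouse 4, 5 or 6 (adjusted p = 0.13, 0.0774 and 0.158, edgeR), and a call at 100 µg/mL was gained without senescent mouse 4 or 5 (adjusted p = 0.042 and 0.047, edgeR).

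**Figure D1:**
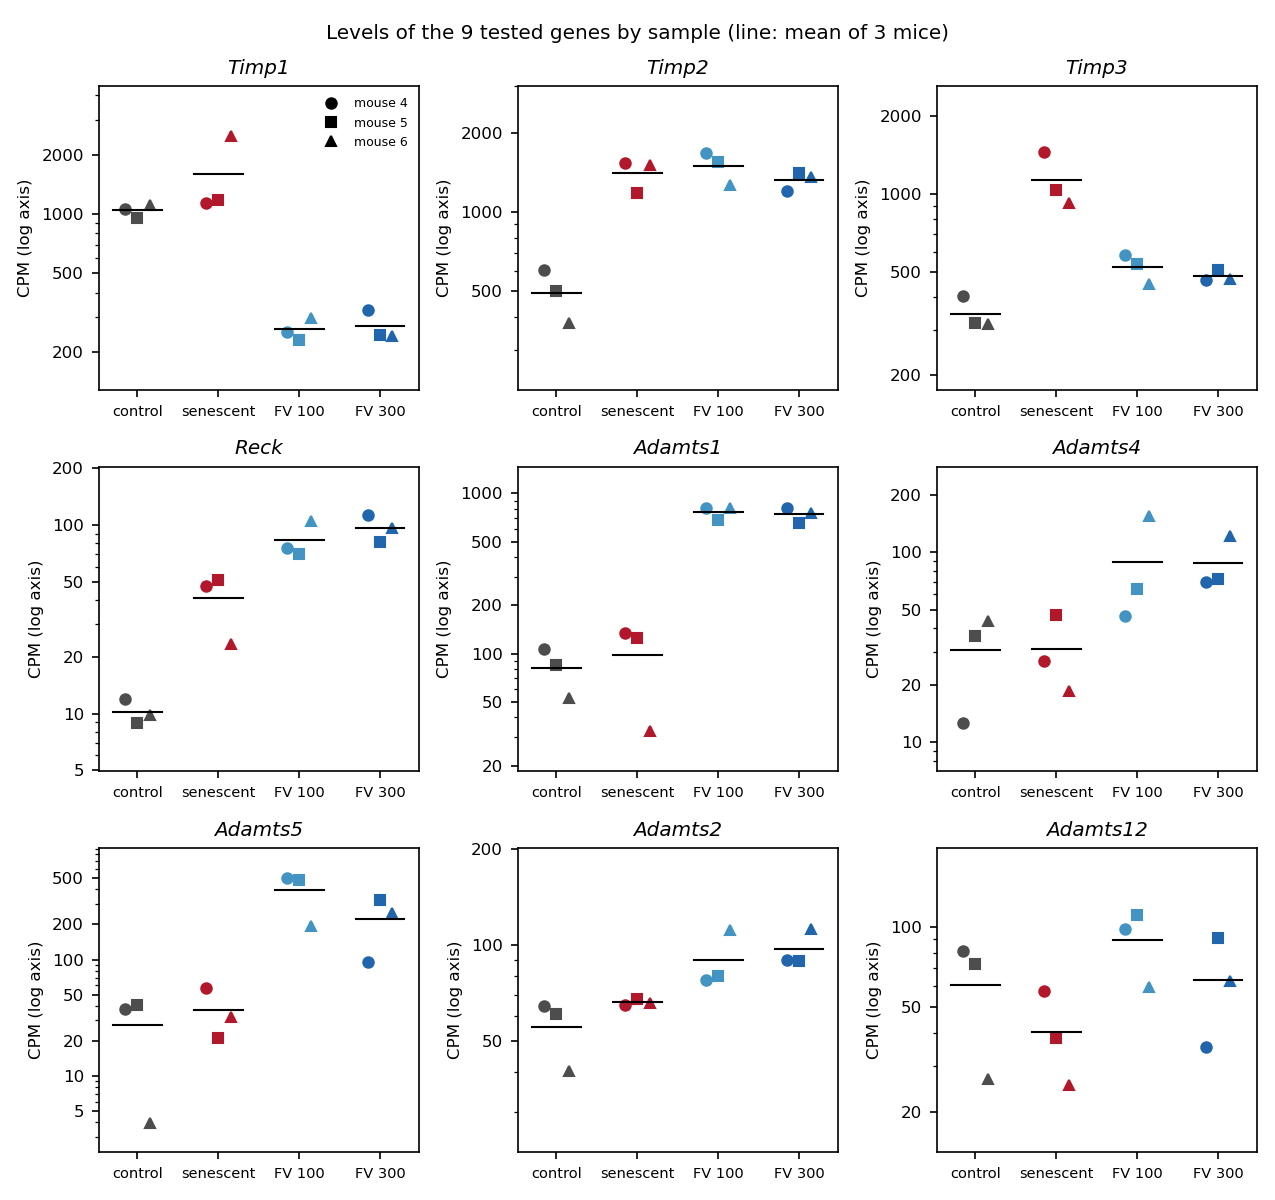
Level of the 9 fitted genes in each of the 12 samples in CPM on a log axis whose range differs between panels, by group (FV 100 and FV 300, senescent MEFs with 100 or 300 µg/mL Fucoidan-FV); symbols mark the mouse and lines the group mean. Timp1 and Adamts1 show treated samples apart from all control and senescent samples in opposite directions, Timp2 stays at its senescent level, and Timp3 lies between control and senescent.

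With Fucoidan-FV the members moved in both directions. At 100 µg/mL, 2 of the 9 members were called higher (Adamts1 and Adamts5) and 2 lower (Timp1 and Timp3), where 1.1% of all genes tested were called higher and 1.6% lower. At 300 µg/mL, 2 were called higher (Adamts1 and Reck) and 2 lower (again Timp1 and Timp3), where 0.752% of all genes were called higher and 0.885% lower. Treated and senescent samples did not overlap for 7 of the 9 members at either dose, as for 26.2% of all genes at 100 µg/mL and 19.6% at 300 µg/mL. For the 5 proteases, all with a positive sign, the median change was 1.53 on the log2 scale at 100 µg/mL and 1.51 at 300 µg/mL, against -0.02 and 0.00 over all genes. The 4 inhibitors had medians of -0.52 and -0.67, with members on either side of 0. Both dose comparisons share the senescent samples and are not independent of each other.

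Adamts1 (chromosome 16, 85590579 to 85600009, minus strand), a versican- and aggrecan-cleaving protease, had the highest mean of the 5 proteases per length in each group, although in senescent mouse 6 it was at 10.89 TPM and Adamts2 at 12.49 TPM. It was at 106.3, 85.12 and 52.63 CPM in control mice 4, 5 and 6 and at 135.4, 125.3 and 33.13 CPM in senescent samples. These groups overlapped, and the log2 fold change was 0.27 ± 0.39 (adjusted p = 0.746, edgeR). Senescent mouse 6, the sample with the highest Timp1, had the lowest Adamts1 of all 12 samples.

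With Fucoidan-FV Adamts1 was at 804.6, 682.3 and 810.8 CPM at 100 µg/mL and at 808.7, 654.3 and 750.3 CPM at 300 µg/mL. The lowest treated sample was 4.83 times the highest sample without Fucoidan-FV. Adamts1 rose by 2.97 ± 0.42 on the log2 scale at 100 µg/mL (adjusted p = 0.00387, edgeR), or 7.82-fold, and by 2.91 ± 0.42 at 300 µg/mL (adjusted p = 0.00501, edgeR). It was called higher at both doses in each of the 21 alternatives run. Without senescent mouse 6 the value at 300 µg/mL was 2.54.

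Adamts5 (chromosome 16, 85653061 to 85698716, minus strand) lies upstream of Adamts1 on the same strand and encodes an aggrecanase with a single annotated transcript. It was at 37.31, 40.89 and 3.95 CPM in control mice 4, 5 and 6 and at 57.33, 21.34 and 32.18 CPM in senescent samples, ranges that overlapped (0.43 ± 0.67, adjusted p = 0.764, edgeR). With Fucoidan-FV it was at 505.4, 486.9 and 194.8 CPM at 100 µg/mL and at 94.61, 322 and 252.2 CPM at 300 µg/mL. Every treated sample was above every other sample, and the highest treated sample was 5.34 times the lowest.

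The log2 fold change of Adamts5 was 3.42 ± 0.73 at 100 µg/mL (adjusted p = 0.0218, edgeR, called) and 2.59 ± 0.70 at 300 µg/mL (adjusted p = 0.0849, edgeR, not called). The call at 100 µg/mL was lost without senescent mouse 5 or 6 (adjusted p = 0.0867 and 0.0996, edgeR) and without treated mouse 4 or 5 (0.0739 and 0.0686). Its level followed the single-transcript deviation of the libraries: the correlation of both, as deviations from the group means over 13 libraries, was 0.94 for Adamts5. It was 0.96 for Timp2, 0.83 for Adamts12, 0.55 for Timp3 and 0.29 for Adamts2. For Adamts1, Reck, Timp1 and Adamts4 it was 0.02, -0.16, -0.36 and -0.46. Timp2 had the highest value although 17.9% of its exonic bases lay in a single transcript. These libraries share depth and composition, so this is a description. With the offset for single-transcript sequence the log2 fold change of Adamts5 was 3.01 at 100 µg/mL (adjusted p = 0.00551, edgeR) and 2.60 at 300 µg/mL (adjusted p = 0.0114, edgeR). Adamts5 was called at 300 µg/mL in 6 of 21 alternatives, this offset and DESeq2 (2.61, adjusted p = 0.025) among them.

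**Figure D2:**
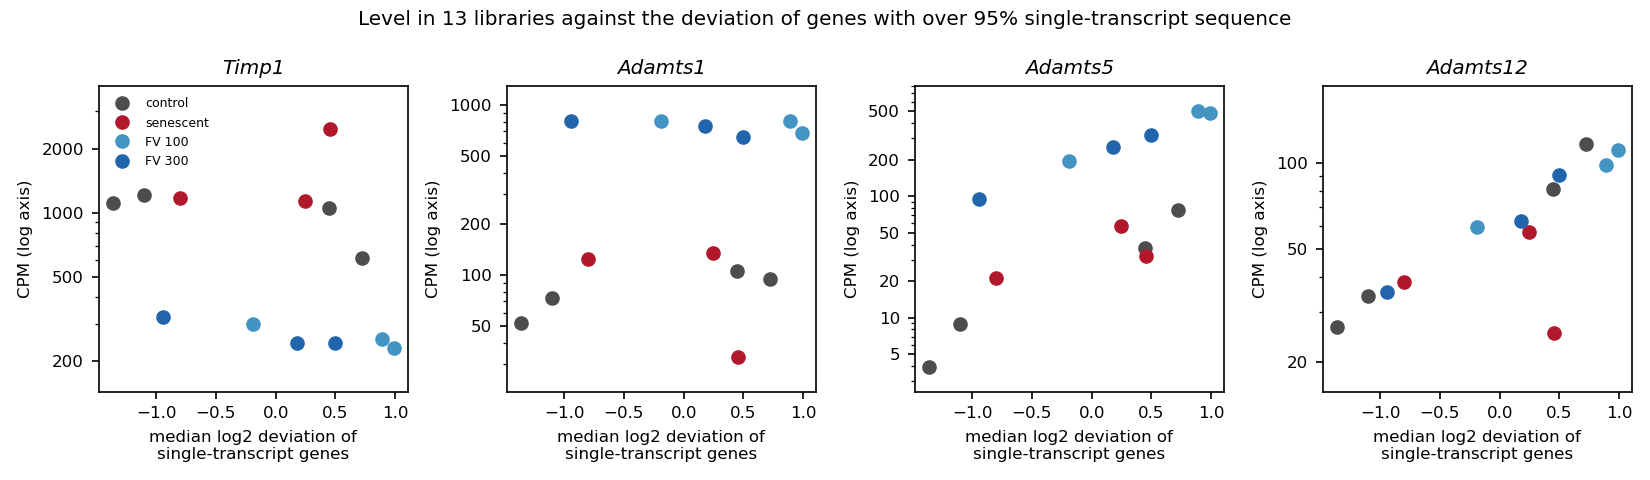
Level in CPM (log axis) of Timp1, Adamts1, Adamts5 and Adamts12 in each of the 13 libraries against the median log2 deviation of genes with over 95% single-transcript sequence in that library, coloured by group. Within groups Adamts5 and Adamts12 mostly rise along the axis. In the senescent group they do not rise throughout, and the library with the highest deviation has the lowest Adamts12. For Timp1 and Adamts1 the Fucoidan-FV libraries keep apart from the others at any deviation.

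Adamts4 (chromosome 1, 171077986 to 171089841, plus strand), the other main aggrecanase, was at 12.66, 36.08 and 43.52 CPM in control mice 4, 5 and 6 and at 26.94, 46.86 and 18.69 CPM in senescent samples. It was at 46.36, 63.79 and 156.2 CPM at 100 µg/mL and at 69.99, 72.73 and 121.2 CPM at 300 µg/mL. The ranges of control and senescent samples overlapped in part. The lowest sample at 100 µg/mL lay inside the senescent range, and all samples at 300 µg/mL lay above it. The log2 fold change was 0.00 ± 0.50 in senescent against control MEFs, and 1.53 ± 0.51 and 1.51 ± 0.51 at the rising doses, where neither was called (adjusted p = 0.116 and 0.159, edgeR). DESeq2 called both (adjusted p = 0.0222 and 0.0419).

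Adamts2 (chromosome 11, 50492787 to 50698400, plus strand), the procollagen N-proteinase, varied least. It was at 64.55, 60.95 and 40.37 CPM in control mice 4, 5 and 6, at 65, 67.98 and 65.88 CPM in senescent samples, at 77.85, 79.88 and 111.5 CPM at 100 µg/mL and at 89.76, 89.23 and 112 CPM at 300 µg/mL. The groups were in rising order with no overlap between senescent and treated samples, yet the log2 differences were small: 0.26 ± 0.21, 0.44 ± 0.21 and 0.55 ± 0.21, with adjusted p = 0.505, 0.278 and 0.228 in edgeR's test.

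Adamts12 (chromosome 15, 11064876 to 11349318, plus strand) was at 81.42, 72.97 and 26.79 CPM in control mice 4, 5 and 6, at 57.36, 38.28 and 25.35 CPM in senescent samples, at 98.48, 110.9 and 59.58 CPM at 100 µg/mL and at 35.28, 90.93 and 62.71 CPM at 300 µg/mL. Control, senescent and 300 µg/mL samples overlapped, and the samples at 100 µg/mL lay above the senescent ones. None of the log2 fold changes of -0.58 ± 0.44, 1.15 ± 0.44 and 0.64 ± 0.44 was called (adjusted p = 0.46, 0.162 and 0.545, edgeR). With the offset for single-transcript sequence the value at 100 µg/mL was 0.82.

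**Figure D3:**
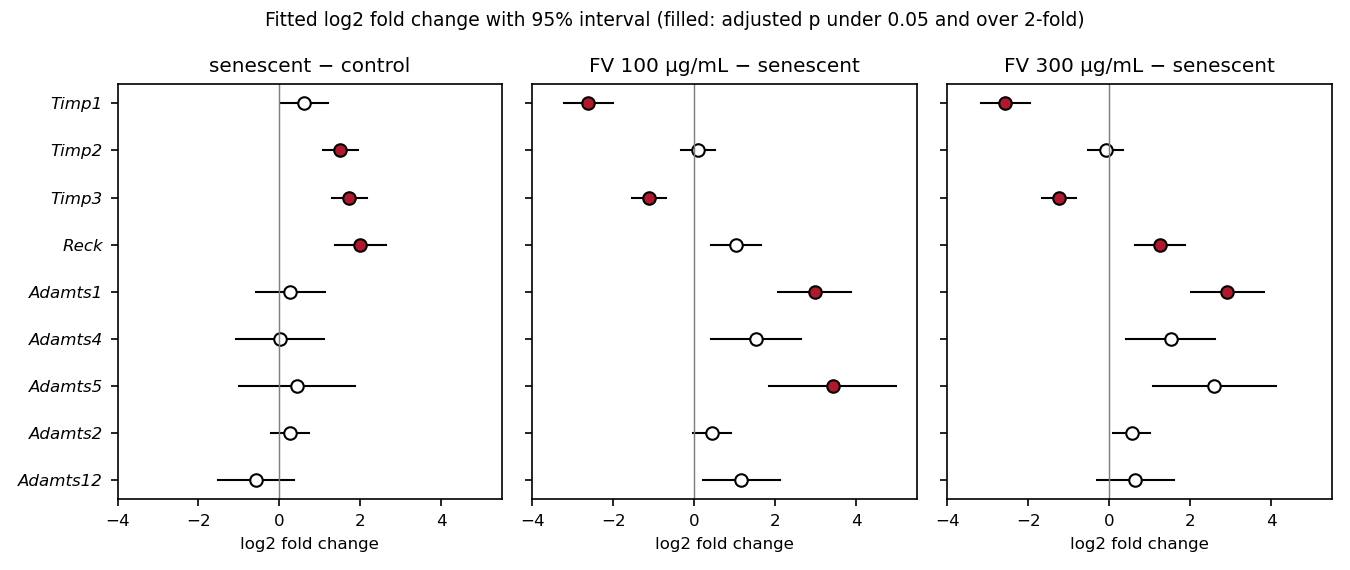
Fitted log2 fold change of the 9 genes with its 95% interval in senescent against control MEFs and in each Fucoidan-FV dose against senescent MEFs; filled points passed adjusted p under 0.05 and 2-fold. Timp2, Timp3 and Reck are filled on the right in the senescent panel, and Timp1 and Timp3 on the left with Adamts1 on the right in both Fucoidan-FV panels.

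The doses of 100 and 300 µg/mL were also compared directly. No member was called (0 of 9 in edgeR's test, adjusted p from 0.97 to 0.996), also under DESeq2, and none had an unadjusted p under 0.05, the smallest being 0.236. Over all genes 1 of 15034 was called (0.00665%), and 94 had an unadjusted p under 0.05. The samples of both doses overlapped for all 9 members, where 7.54% of all genes did not overlap. The intervals show what the data leave possible: the 95% interval of the log2 difference at 300 against 100 µg/mL was -0.52 to 0.63 for Timp1, -0.54 to 0.30 for Timp3, -0.38 to 0.82 for Reck, -0.90 to 0.79 for Adamts1 and -2.26 to 0.61 for Adamts5. Thus Adamts5 and Reck, each called at a single dose in edgeR's fit, were not shown to differ between the doses.

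Levels of different genes can be compared only per length, for which the deposited TPM, a transcript level scaled for length and library depth, were used. In control MEFs Timp1 was highest at 2191 ± 236.9 TPM (SD, n = 3), followed by Timp2 at 632 ± 19.9 TPM and Timp3 at 141 ± 16.2 TPM (SD, n = 3 each), and none of these neighbours overlapped. Adamts1 came next at 36.2 ± 8.23 TPM (SD, n = 3). Adamts12, Adamts2, Adamts4, Adamts5 and Reck followed in this order at 13.3 to 3.01 TPM, and each of these overlapped its neighbour in level. In senescent MEFs the leading order was the same, with Timp1 at 3364 ± 1057, Timp2 at 1889 ± 278 and Timp3 at 476.5 ± 226 TPM (SD, n = 3 each), again without overlap between neighbours.

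With Fucoidan-FV the order changed. Timp2 became the highest at 1981 ± 180 TPM at 100 µg/mL and 2094 ± 221 TPM at 300 µg/mL, ahead of Timp1 at 783 ± 29.8 and 734 ± 80.0 TPM (SD, n = 3 each). Adamts1 was next at 425 ± 33.6 and 404 ± 37.9 TPM, above Timp3 at 268 ± 26.9 and 263 ± 27.4 TPM (SD, n = 3 each). None of these 4 neighbours overlapped at either dose.

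Summed per length, the inhibitors (Timp1 to Timp4 and Reck) were at 2967 ± 265 TPM in control, 5742 ± 628 in senescent, 3066 ± 214 at 100 µg/mL and 3126 ± 310 TPM at 300 µg/mL (SD, n = 3 each). The 5 proteases were at 74.1 ± 13.3, 84.3 ± 42.9, 578 ± 33.7 and 517 ± 5.86 TPM in the same groups (SD, n = 3 each). On this scale the senescent samples were the only group apart from the rest for the inhibitors. The treated samples stood apart from all others for the proteases.

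The summed inhibitors exceeded the summed proteases 37.9, 32.9 and 53.1-fold in control mice 4, 5 and 6 and 49.1, 50.7 and 180.3-fold in the senescent samples. With Fucoidan-FV the ratio was 5.25, 5.05 and 5.62 at 100 µg/mL and 6.66, 6.00 and 5.48 at 300 µg/mL. All 6 treated samples were thus below all others, and summed inhibitor RNA stayed above summed protease RNA in every sample. The sums hold no MMPs, on which TIMP1 and TIMP2 mainly act. Senescent mouse 6 stood apart, with its high Timp1 and low Adamts1. Timp3 alone, the TIMP that also inhibits ADAMTS proteases, was set against the sum of Adamts1, Adamts4 and Adamts5. That ratio was 2.42 to 3.35 in control samples and 6.70 to 12.64 in senescent samples. In the treated samples it was 0.47 to 0.63, so Timp3 RNA was below the summed RNA of these proteases. These are ratios of RNA levels, and neither protein nor inhibitory activity was measured. Reads of Timp3 could also not be told apart with certainty from those of the overlapping Syn3. TPM of Timp2, Timp3, Adamts1 and Adamts12 also depends on the estimated transcript length, which varied between libraries from 976 to 1904, 2709 to 4407, 2508 to 3600 and 3665 to 8081 bases. It was near constant for Timp1, Reck (4481 to 4490 bases) and Adamts5 (10791 bases). On the CPM scale, which does not use length, the summed inhibitors were at 1895, 4187, 2361 and 2171 CPM and the proteases at 255, 272, 1430 and 1209 CPM in the 4 groups. For the inhibitors, control samples (1787 to 2078 CPM) then also lay below the treated ones. These were at 2117 to 2579 CPM at 100 µg/mL and 2102 to 2246 CPM at 300 µg/mL.

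**Figure D4:**
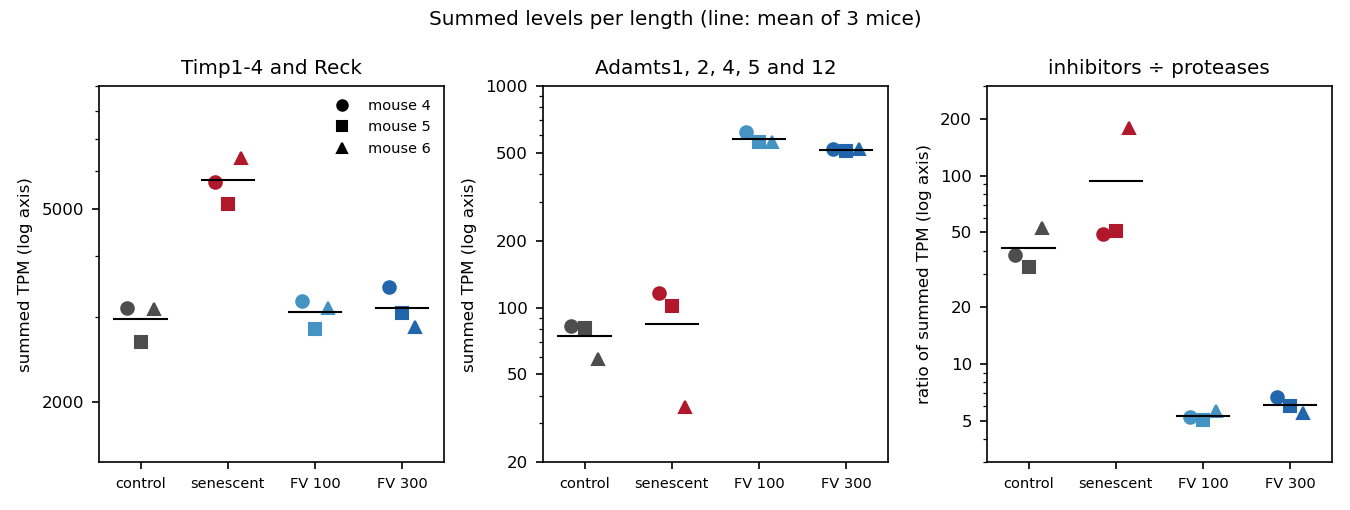
Summed TPM of the 5 inhibitors, summed TPM of the 5 proteases and their ratio in each of the 12 samples, on log axes; symbols mark the mouse and lines the group mean. Inhibitors are highest in senescent samples, proteases are highest in the 6 Fucoidan-FV samples, and the ratio is 5.05 to 6.66 in these against 32.9 to 180.3 in all others.

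Among 12645 genes with a mean of at least 1 CPM, those whose log2 level over the 12 samples was most like a called member were, by Pearson correlation, Capg (0.99) and Phldb1 (0.98) for Timp1, Col10a1 (0.99) and Perp (0.98) for Timp2, and Mapk13 (0.91) and Bpgm (0.90) for Timp3. For Reck they were Rcan2 and Itgbl1 (0.99 each), for Adamts1 Mme and Map2 (0.98 each) and for Adamts5 Sfrp1 (0.99) and Gpr107 (0.98). Among the members themselves Timp1 and Adamts1 were the pair most opposed (-0.97 over the same 12 samples). The samples share the 4 groups, so these likenesses mainly carry group differences and are a description.

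Genes of the same pathway that are no members were counted in lists set by role. Beside these counts stand the shares over all genes tested. In senescent against control MEFs 4.47% were called higher and 3.95% lower. At 100 µg/mL the shares were 1.1% higher and 1.6% lower, and at 300 µg/mL 0.752% and 0.885%. Of 14 other ADAMTS genes, 11 could be fitted; Adamts8, Adamts13 and Adamts19 could not. In senescent against control MEFs 1 of the 11 was called, Adamts17, a protease linked to microfibrils, at a mean of 0.470 against 0.0131 CPM (4.41 ± 1.04, adjusted p = 0.0146, edgeR). At 100 µg/mL 1 was called, Adamts9, which cleaves versican and aggrecan like its relatives, at a mean of 31.0 against 10.7 CPM (1.53 ± 0.39, adjusted p = 0.047, edgeR). At 300 µg/mL none was called, with Adamts9 at 1.57 (adjusted p = 0.0614, edgeR). With the mouse as a block Adamts9 was not called at 100 µg/mL either (adjusted p = 0.0755, edgeR). The median log2 fold change of these 11 genes was -0.02 in senescent MEFs and 1.23 and 0.73 with the rising doses. Over all genes it was 0.07, -0.02 and 0.00. Some of the 11 were near 0: Adamts15, Adamts16 and Adamts18 had senescent means of 0.034, 0.064 and 0 CPM. Their log2 values at 100 µg/mL were 5.25, 4.24 and 6.37. The better detected Adamts6, Adamts7, Adamts9, Adamts10 and Adamts14 were at 0.24, 1.23, 1.53, 0.45 and -0.20 at this dose.

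Of 7 ADAMTS-like genes, whose products resemble the ancillary part of ADAMTS proteins and lack the protease domain, Adamtsl4 was called in senescent MEFs (1.45 ± 0.20, adjusted p = 0.00052, edgeR). Adamtsl3 was called with Fucoidan-FV, by 2.48 ± 0.48 at 100 µg/mL and 2.44 ± 0.48 at 300 µg/mL (adjusted p = 0.0144 and 0.0224, edgeR). The other 6 genes were not called at either dose.

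Of 12 substrate genes fitted, the small proteoglycan decorin (Dcn) was called higher in senescent MEFs, at a mean of 16.3 against 1.06 CPM (3.95 ± 0.67, adjusted p = 0.00215, edgeR), and the cartilage collagen Col2a1 lower (-1.41 ± 0.23, adjusted p = 0.00183, edgeR). Versican (Vcan), the main proteoglycan substrate of ADAMTS1, was called higher with Fucoidan-FV at a mean of 597 CPM at 100 µg/mL and 565 CPM at 300 µg/mL against 145 CPM in senescent MEFs (2.04 ± 0.46 and 1.96 ± 0.46, adjusted p = 0.0283 and 0.0455, edgeR). The fibrillar collagen Col3a1 was called at both doses as well (1.38 ± 0.28 and 1.17 ± 0.28, adjusted p = 0.0164 and 0.0488, edgeR), and Dcn at 100 µg/mL (2.33 ± 0.60, adjusted p = 0.0477, edgeR). With the mouse as a block only Col3a1 at 100 µg/mL was still called (adjusted p = 0.0268, edgeR). Under that block the adjusted p was 0.066 and 0.0942 for Vcan at the rising doses, 0.0715 for Col3a1 at 300 µg/mL and 0.0869 for Dcn at 100 µg/mL (edgeR).

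Of 15 MMPs fitted, the proteases that TIMPs and RECK inhibit, 3 were called higher and 1 lower in senescent MEFs. Mmp28 (1.71 ± 0.35), Mmp19 (1.26 ± 0.29) and the collagenase Mmp13 (2.69 ± 0.79) were higher, and the gelatinase Mmp9 (-3.22 ± 0.77) was lower (adjusted p = 0.00693, 0.0141, 0.0429 and 0.0161, edgeR). The call of Mmp13 rested on few counts, at a mean of 0.722 against 0.113 CPM. With Fucoidan-FV Mmp13 was called at both doses, at means of 10.5 and 7.09 CPM against 0.722 CPM (3.84 ± 0.71 and 3.28 ± 0.70, adjusted p = 0.0112 and 0.0297, edgeR), and so was the membrane-type Mmp16 (1.54 ± 0.33 and 1.65 ± 0.33, adjusted p = 0.0228 and 0.0245, edgeR). With the mouse as a block Mmp13 was not called in senescent MEFs or at 300 µg/mL (adjusted p = 0.0592 and 0.0525, edgeR).

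Of 8 ADAM sheddases 1 was called, Adam12, which was lower in senescent MEFs (-1.87 ± 0.32, adjusted p = 0.0022, edgeR), and none was called at either dose. Of 12 genes for proprotein convertases, binding partners and uptake receptors, Efemp1 was called higher, at a mean of 42.8 against 6.58 CPM (adjusted p = 0.0033, edgeR), and the ADAMTS1-binding fibulin Fbln1 lower (-2.55 ± 0.64, adjusted p = 0.0203, edgeR) in senescent MEFs. The matricellular gene Thbs2 was called at 100 µg/mL (1.46 ± 0.36, adjusted p = 0.0407, edgeR) and the convertase Pcsk6 at 300 µg/mL (1.18 ± 0.27, adjusted p = 0.0397, edgeR). With the mouse as a block Thbs2 was not called (adjusted p = 0.0616, edgeR), and Pcsk5 was, in senescent MEFs (1.69, adjusted p = 0.0176, edgeR). No gene of these 6 lists was called between the doses. With the mouse as a replicate block the lists held 4 calls in place of 8 at 100 µg/mL and 3 in place of 6 at 300 µg/mL.

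**Figure D5:**
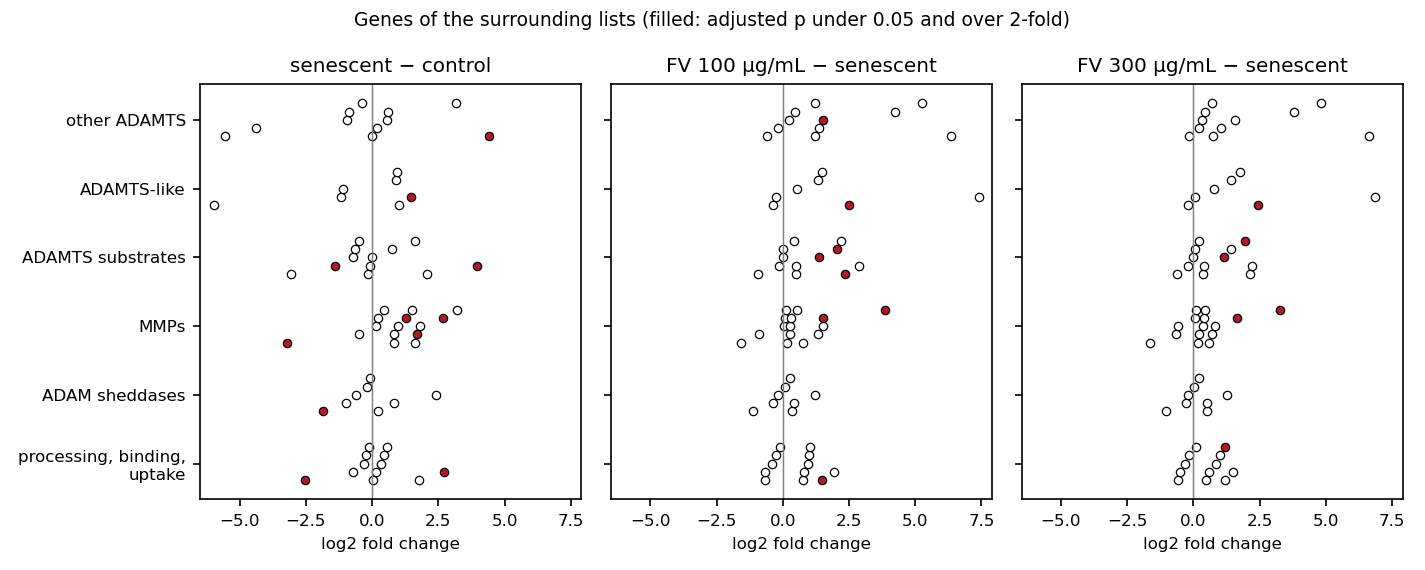
Fitted log2 fold change of each fitted gene in the 6 lists of related genes that are no members, in the same 3 comparisons; filled points passed adjusted p under 0.05 and 2-fold, and vertical scatter within a list only separates points. Filled points lie on both sides of 0 in senescent against control MEFs and only on the higher side with Fucoidan-FV.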

How the data were processed

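Total RNA of 13 libraries was made into stranded libraries with the TruSeq Stranded Total RNA kit. Per the labels and the study's methods, reads were checked with FastQC 0.12.1, trimmed with Trimmomatic, aligned to GRCm39 with STAR 2.7.11b and counted with RSEM 1.3.1. The authors deposited RSEM's expected counts per gene, which are not normalized, with its TPM, which the authors left as RSEM normalized them for length and depth, and its abundance-weighted transcript length in bases. How RSEM was told to treat strand is not given in the sources used here. A deposited table of all libraries held the same expected counts (largest difference 0).

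Expected counts were rounded, libraries 5(1) and 5(2) of control mouse 5 were summed, and genes were kept by filterByExpr with its standard settings (minimum count 10, minimum total 15), which left 15034 genes. The 4 groups were fitted together with edgeR 4.0.16 (R 4.3.3; TMM factors, quasi-likelihood test) and p-values were adjusted over all genes tested by the Benjamini-Hochberg method. Following the study's methods, a gene was called when its adjusted p was under 0.05 and its log2 fold change was above 1 or below -1. The SE is the log2 fold change divided by the square root of the F statistic. Log2 levels for likeness used a prior count of 2. Alternatives were DESeq2 1.42.0, RLE size factors, other filters, other treatments of libraries 5(1) and 5(2) and a replicate block. In others a single sample was left out at a time, while samples of the same mouse in other groups stayed in. Offsets for single-transcript sequence (a spline with 4 degrees of freedom on the share of exonic bases in a single GENCODE M39 transcript) were used as well. An offset that also used exonic length, and the sum of Timp3 and Syn3, were added after seeing the data. TPM of 5(1) and 5(2) were averaged. The scripts were tested on simulated data.

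The members and the gene lists were chosen with earlier results of these data known. All 10 members were named; of each other list, up to 4 called genes with the smallest adjusted p in a comparison; and for each called member, the 2 genes most like it. Gene IDs of 56310 of the 57010 genes matched GENCODE M39.

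Replicates are numbered by mouse in the labels, so samples with the same number come from the same mouse and pair across groups. Their deviations from the group means, however, correlated little: the median over 18 pairs of samples was -0.01 (range -0.20 to 0.42), and 8 pairs were over 0.1. P-values of the main fit rest on a spread between cultures that was estimated over the 12 samples of all 4 groups together. That fit does not use the pairing by mouse and treats the samples as independent. Total counts of 22782536 to 31278750 per library limit what can be seen for genes with few counts, such as Timp4.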

Additional observations from a re-analysis of the deposited data

How the results depend on the processing

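Of the 190 results of single genes and alternatives in each comparison, all 175 for senescent against control MEFs that kept their sign also kept their call, and Timp2, Timp3 and Reck were the 3 members called in every alternative. At 100 µg/mL against senescent MEFs 7 lost and 14 gained a call, and at 300 µg/mL 9 lost and 8 gained one; the cause was not tested except where fewer samples or genes entered the fit. The number of members called at 100 µg/mL was 4. It was 7 with no filter on low counts beyond 1 count and 6 with DESeq2. It was 3 with only the 2 groups compared and 3 to 4 when a single sample was left out. Over all genes, 405 were called in the main fit and 765 with DESeq2. At 300 µg/mL the number of members called was 4. It was 6 with no such filter and with DESeq2, and 3 with only the 2 groups compared. It was 2 to 4 when a single sample was left out, with 2 without the 300 µg/mL sample of mouse 6. Over all genes, 246 were called at this dose in the main fit and 606 with DESeq2. No member was called between the doses in any alternative. Members not called whose sign depended on a setting were these. In senescent against control MEFs Adamts4 was at -0.0146 with DESeq2, -0.0152 with RLE factors, -0.0150 with at least 10 counts in every sample, -0.0473 with no filter, -0.0104 with only the 2 groups compared, -0.0596 with 5(1) and 5(2) separate, -0.12 with 5(2) alone and -0.0708 and -0.0461 with the offset without and with exonic length; with 5(2) alone Adamts5 was at -0.10. When a single sample was left out Adamts4 ran from -0.42 to 0.34, Adamts5 from -0.0569 to 0.86 and Adamts1 from -0.0582 to 0.69, and Timp2 at 300 µg/mL from -0.15 to 0.0548. Between the doses Timp1 was at -0.0170 with DESeq2 and with RLE factors, -0.0222 with only the 2 groups, -0.0285 with at least 10 counts, -0.0022 with no filter, and -0.11 and -0.21 with the offset without and with exonic length; Timp3 was at 0.27 with either offset. When a single sample was left out Timp1 ran from -0.0994 to 0.16, Adamts4 from -0.32 to 0.68, Adamts1 from -0.13 to 0.0282 and Adamts2 from -0.0009 to 0.30.

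With the mouse as a replicate block, Reck at 300 µg/mL was at 1.25 (adjusted p = 0.0722, edgeR; the range over its alternatives was 0.000556 to 0.158) and was the one call of a member that the block alone changed; Adamts4 between the doses turned to 0.10. With the block and the offset Timp1 between the doses was at -0.10, and at -0.21 with exonic length, and Timp3 at 0.26 in both. Called genes of the 6 other lists numbered 8 higher at 100 µg/mL, 4 with the block and 14 with DESeq2, and 6 higher at 300 µg/mL, 3 with the block, 12 with DESeq2 and 10 with the offset; lower calls were 0, and 1 with DESeq2 at each dose. In senescent against control MEFs they numbered 7 higher and 4 lower, and 11 and 7 with DESeq2. Over all genes, the main fit called 1266 there and DESeq2 1720. The mean summed TPM of the proteases in senescent samples ran from 68.4 to 108.6 when a senescent sample was left out. With 3 mice per group, the size of the changes of Adamts4, Adamts5 and Adamts12 was poorly resolved. At 300 µg/mL against senescent MEFs the 95% interval was 0.41 to 2.62 for Adamts4 and 1.07 to 4.11 for Adamts5. For Adamts12 it was -0.30 to 1.59.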
